A study of Homo sapiens with 9 samples.

Results

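This report describes HepG2 cells after 24 h of 100 nM GW7647 set against cells given the DMSO vehicle. HepG2 is an established line from a human hepatoma that still makes many plasma proteins, and GW7647 is a synthetic compound that activates the nuclear receptor PPARα. The comparison holds 6 of the 9 arrays of the series, the 3 labelled as controls and the 3 labelled with 24 h of the ligand, and 3 further arrays taken after 6 h of the same dose are quoted beside them. All cells grew in medium without phenol red and were split the day before treatment. No source used here says how long the vehicle was applied, and 1 vehicle group serves both times, so effects of the ligand and of hours in culture cannot be told apart. The arrays were Affymetrix 3′ expression arrays with log2 RMA signals, and every gene is represented by 1 probe set, the one with the highest mean over the 9 arrays among those with a single gene symbol, which gave 19775 genes. Nothing in the labels says that replicates were separate cultures, and the p-values therefore cover the spread among these arrays, part or all of which can be technical.

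PPARα is a transcription factor that binds DNA as a pair with RXR and is switched on by fatty acids and by fibrate drugs. In liver it is known for raising genes that carry fatty acids into mitochondria and peroxisomes, oxidise them there, make ketone bodies and coat lipid droplets. Liver cells also run an amino acid response, in which the transcription factor ATF4 raises genes for amino acid synthesis, uptake and tRNA charging, and a response to low oxygen, in which HIF factors raise glucose transporters, glycolytic enzymes and VEGFA. GW7647 at a single dose was used here, with no antagonist or receptor-depleted cells, so a change at 24 h is a change with this treatment and not a measure of the receptor's share in it.

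Pearson's r was taken across all 54613 probe sets other than controls, which are not independent replicates. It was 0.996 to 0.998 in the 6 pairs of arrays within these groups and 0.995 to 0.996 in the 9 pairs between vehicle and 24 h. RNA quality, read as the 3′ signal of actin above its 5′ signal, was 0.152 to 0.360 log2 units in vehicle and 0.250 to 0.404 at 24 h. The labelled cell type was checked on 8 analysed hepatocyte markers, whose mean log2 signals lay between 9.69 and 14.77. Of these 0 rose and 2 fell, TTR and FGB, and the joint mean of the 8 was 13.42 to 13.47 in the vehicle arrays and 13.28 to 13.3 in the 24 h arrays, with no overlap. That joint mean includes TTR and FGB and was not computed without them, so it does not show a fall across the markers. Of 34 analysed markers of other cell types, 22 had a mean signal under 6, and their joint mean was 6.154 to 6.187 in the vehicle arrays and 6.146 to 6.205 in the 24 h arrays. Only 1 of the 34, the smooth muscle actin ACTA2, passed the test, with a rise of 0.27 ± 0.05 log2 units (SE of the limma fit) that did not pass as the mean of its probe sets (0.12). Of 5 cholangiocyte markers, whose median signal was 10.7, 0 passed in limma. In bulk samples fewer cells of a type and less RNA per cell cannot be told apart.

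After 24 h, 1063 genes were higher than in vehicle and 553 were lower at an adjusted p under 0.05 (limma over all 9 arrays, two-sided, Benjamini-Hochberg over 19775 genes), which is 5.38% and 2.8% of the genes tested, or 8.17% in either direction. Most changes were small. Among genes called, 87.2% of those higher and 93.3% of those lower differed by less than 1.5-fold, and the median log2 change was 0.34 for the first and -0.31 for the second, against 0.0034 over all genes. Changes past 2-fold were found for 40 genes that rose and 3 that fell. The share of genes called grew with the signal, from 1.12% of the 6591 genes with the lowest mean signal to 7.45% of the 6592 in the middle and 15.9% of the 6592 with the highest. In the third with the highest signal 663 genes were higher and 388 lower. The counts on the gene lists below are to be read beside the shares over all genes and their growth with the signal. The arrays of both groups did not overlap for 14% of all genes in the upward and 8.95% in the downward direction. The count of higher genes fell to 676 without vehicle replicate 1 and to 612 without 24 h replicate 2, and that of lower genes to 312 without 24 h replicate 1. With every array left out in turn, 783 genes were called in all 9 fits, 531 of them higher and 252 lower. In the direct comparison of 24 h with 6 h, used below to say whether a gene's level differed between the times, 9.23% of genes were higher and 4.57% lower at 24 h. Of the genes called against vehicle, 65.8% were higher, a share that was 58.5% after quantile normalization and 72.6% after median centring.

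**Figure D1:**
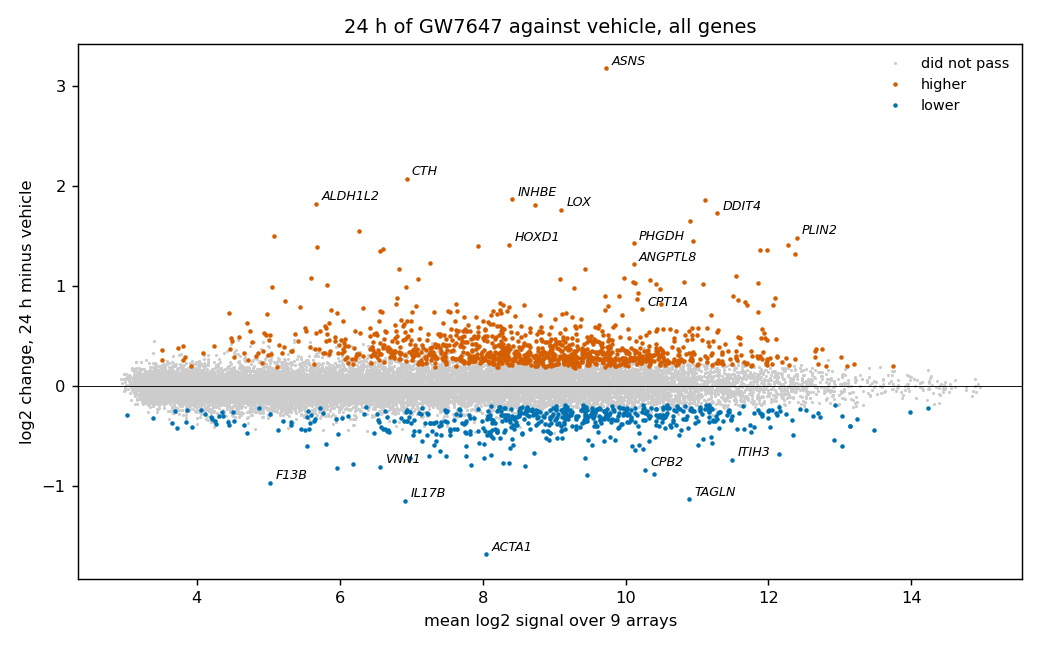
Log2 change at 24 h against vehicle (vertical axis) by mean log2 signal over the 9 arrays (horizontal axis), 1 point per gene, for 19775 genes. Orange points are the 1063 genes that were higher and blue points the 553 that were lower at an adjusted p under 0.05; ASNS stands highest at 3.18 and ACTA1 lowest at -1.68.

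Among classical PPARα target genes the lipid droplet coat protein PLIN2 and the carnitine acyltransferase CPT1A, which lets long-chain fatty acids into mitochondria, led the rises. The list of targets had 30 analysed members, of which 12 were higher, 1 was lower and 17 did not pass, with a median log2 change of 0.18 over the list beside 0.0034 over all genes. PLIN2 had signals of 11.55, 11.57 and 11.54 log2 units in vehicle replicates 1 to 3 and 13.09, 13.02 and 13.01 at 24 h. Its arrays were far apart and the 6 h arrays, at 12.54, 12.51 and 12.72, lay between both groups. PLIN2 rose 2.81-fold (95% confidence interval 2.55 to 3.09, adjusted p = 2.59e-07), and it was a further 0.45 ± 0.06 log2 units higher at 24 h than at 6 h (adjusted p = 0.000905). A second PLIN2 probe set gave -0.01. CPT1A read 9.83, 9.75 and 10.15 in vehicle and 10.70, 10.68 and 10.65 at 24 h. The 24 h arrays agreed closely while vehicle replicate 3 stood above the rest of its group, and the groups did not overlap. CPT1A rose 1.70-fold (1.49 to 1.95, adjusted p = 0.000485), and all 4 of its probe sets were positive, between 0.66 and 1.10.

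Some genes of the mitochondrial steps after CPT1A rose as well. SLC25A20, which carries acylcarnitines across the inner membrane, rose by 0.45 ± 0.06 log2 units, and ACAA2, the thiolase of the last step, by 0.42 ± 0.06. ETFDH, which passes electrons from fatty acid oxidation to the respiratory chain, read 6.75, 6.86 and 6.66 in vehicle and 7.36, 7.51 and 7.37 at 24 h, which is 1.57-fold (1.42 to 1.74, adjusted p = 0.000189). Its 6 h arrays, at 6.84, 6.85 and 6.84, fell within the range of the vehicle arrays. Of 23 analysed genes of mitochondrial fatty acid oxidation, 8 rose, 0 fell and 15 did not pass, with a median of 0.17. That count was 5 when vehicle replicate 1, vehicle replicate 3 or 24 h replicate 1 was left out, and 4 without 24 h replicate 2. The acyl-CoA dehydrogenases ACADM (0.08), ACADVL (0.17) and ACADS (0.17) did not pass, nor did HADHA (0.08). Of 41 respiratory chain genes 0 rose and 2 fell, with a median of 0.04. The falls numbered 0 when vehicle replicate 3 or 24 h replicate 1 was left out, and 1 when vehicle replicate 1 or 2, either of 6 h replicates 1 and 3, or 24 h replicate 3 was. Without vehicle replicate 2, 7 of these genes rose.

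In peroxisomes, catalase (CAT), which breaks down hydrogen peroxide, read 11.40, 11.47 and 11.34 in vehicle and 11.90, 11.95 and 11.84 at 24 h. The groups were apart and the 6 h arrays, at 11.40, 11.40 and 11.44, matched vehicle. CAT rose 1.41-fold (1.29 to 1.53, adjusted p = 0.000485), and PEX11A, which takes part in peroxisome division, by 0.35 ± 0.07 log2 units. Of 22 peroxisomal genes analysed 4 rose and 0 fell, and 2 rose when any of vehicle replicates 1 and 3 and 24 h replicates 2 and 3 was left out. The bifunctional enzyme EHHADH (0.13) and the thiolase ACAA1 (0.09) did not pass. None of 4 analysed ketone body genes passed in limma, with changes between -0.12 for BDH2 and 0.11 for ACAT1.

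Some target genes of the receptor, and genes on a separate list of omega-hydroxylases, were lower or did not pass. The 1 member of the target list that fell was VNN1. The omega-hydroxylases CYP4F3 (-0.59 ± 0.09), CYP4F12 (-0.42 ± 0.06) and CYP4F2 (-0.35 ± 0.07), which oxidise the far end of fatty acids, fell, while CYP4A11 (-0.06) did not pass; of the 6 analysed genes of that step 0 rose. Cytochrome P450 genes of a subfamily are close relatives, so which CYP4F member a probe set reads is uncertain. VNN1, an enzyme that releases pantothenic acid and is a PPARα target in liver, read 6.71, 6.72 and 6.75 in vehicle and 5.86, 6.00 and 5.90 at 24 h. All 3 of its 6 h arrays, at 7.13, 6.91 and 7.06, were above vehicle and all 3 of its 24 h arrays were below. VNN1 fell 1.75-fold (1.58 to 1.94, adjusted p = 3.98e-05) at 24 h and was higher by 0.30 log2 units at 6 h (adjusted p = 0.0331), and the difference between the times was -1.11 ± 0.07 log2 units (adjusted p = 4.80e-06). ANGPTL4 (0.23 ± 0.10, adjusted p = 0.227), the fasting signal FGF21 (-0.02 ± 0.09) and the pyruvate dehydrogenase kinase PDK4 (-0.06 ± 0.13) did not pass.

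The receptor gene itself was near its vehicle level. PPARA read 8.46, 8.41 and 8.60 in vehicle and 8.41, 8.48 and 8.41 at 24 h, and its partner RXRA 9.65, 9.81 and 9.61 against 9.62, 9.69 and 9.57. The groups overlapped for both genes, and the changes were -0.06 ± 0.06 and -0.06 ± 0.07 log2 units. At 6 h, against the same vehicle arrays, PPARA had changed by -0.61 and RXRA by -0.64, and both were higher at 24 h than at 6 h, by 0.55 ± 0.06 (adjusted p = 0.000215) and 0.58 ± 0.07 (adjusted p = 0.000379). PPARGC1A, a coactivator of the receptor that drives mitochondrial and glucose-producing genes, read 6.40, 6.18 and 6.14 in vehicle, 5.75, 5.58 and 5.48 at 6 h and 6.74, 6.93 and 6.72 at 24 h. Its 3 groups did not overlap, with 6 h lowest and 24 h highest. It rose 1.47-fold at 24 h (1.28 to 1.69, adjusted p = 0.00377). CREB3L3, a liver transcription factor of the fasting response, rose by 0.59 ± 0.13 (adjusted p = 0.0226), a call lost in the fit of the compared groups alone (adjusted p = 0.0658) and when any of vehicle replicates 1 and 3 and 24 h replicates 2 and 3 was left out, where its adjusted p reached 0.0890. FABP1, which binds fatty acids in the cytosol, rose by 0.31 ± 0.06. Without probe sets whose names mark probes shared between transcripts, FABP1 (0.29), PEX11A (0.19) and ACAA2 (0.13) did not pass.

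**Figure D2:**
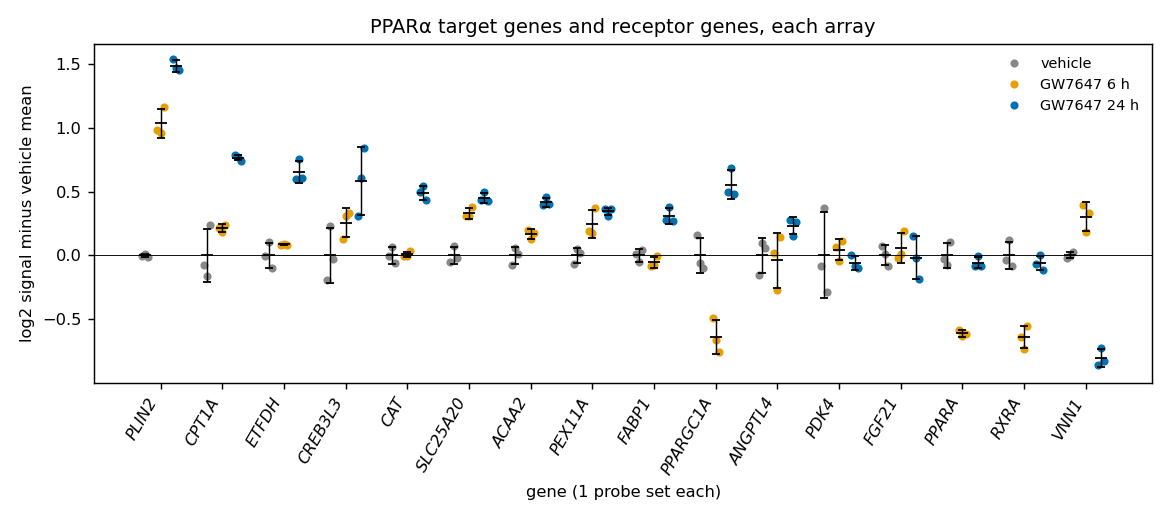
Log2 signal of each array minus the vehicle mean of the gene (vertical axis) for 16 PPARα-related genes (horizontal axis), with vehicle in grey, 6 h in orange and 24 h in blue, 3 arrays each. Black bars are the mean and SD of 3 arrays; PLIN2 and CPT1A stand above vehicle at 24 h by 1.49 and 0.77, VNN1 at -0.81, and PPARA and RXRA near 0 at 24 h but below it at 6 h.

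Of 33 genes of lipid droplets and triglyceride synthesis 6 rose and 1 fell, while the median change was -0.05 and 10 of the 33 changes were above 0. With an array left out, 4 to 6 rose. The risers besides PLIN2 included the lipase-like PNPLA3 (0.50 ± 0.08), the acyltransferase AGPAT2 (0.35 ± 0.06) and HILPDA (0.31 ± 0.05), an inhibitor of lipolysis that also answers to low oxygen. ANGPTL8, a secreted inhibitor of lipoprotein lipase, read 9.45, 9.70 and 9.64 in vehicle and 10.84, 10.84 and 10.77 at 24 h. The groups were apart, and the change was 2.33-fold (1.85 to 2.94, adjusted p = 0.000758). Fatty acid synthase FASN (-0.07), ACACA (0.01) and SCD (0.15) did not pass. The bile acid list had 5 risers and 2 fallers of 23, with a median of -0.0002 and 11 changes above 0. The repressor NR0B2, also called SHP, rose by 0.90 ± 0.06, and both subunits of the bile acid exporter, SLC51A (0.70 ± 0.14) and SLC51B (0.58 ± 0.08), rose with it, while the reductase AKR1D1 fell by 0.69 ± 0.10. CYP7A1, the rate-limiting enzyme of bile acid synthesis, changed by -0.33 and did not pass. Of 14 genes of glucose production 4 rose and 0 fell, among them the transcription factor FOXO1 (0.54 ± 0.07), the glucose phosphatase G6PC1 (0.40 ± 0.07) and the mitochondrial carboxykinase PCK2 (1.03 ± 0.06), while PCK1 (0.16) and FBP1 (0.08) did not pass.

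The largest rise of all 19775 genes was that of ASNS, the enzyme that makes asparagine, and genes of amino acid synthesis, uptake and tRNA charging rose beside it. ASNS (GRCh38.p14 chr7:97851677-97928441, minus strand) read 8.41, 8.59 and 8.42 in vehicle and 11.62, 11.78 and 11.56 at 24 h. All 3 of the 24 h arrays were above all others, and the 6 h arrays, at 9.07, 9.03 and 9.09, were above vehicle by a small part of that distance. ASNS was 9.06-fold higher at 24 h (8.13 to 10.1, adjusted p = 1.69e-09). It was 0.59 log2 units above vehicle at 6 h, and the step from 6 h to 24 h was 2.59 ± 0.07 (adjusted p = 8.09e-09). A second ASNS probe set, with a name that marks no shared probes, gave 0.16 and did not pass (adjusted p = 0.379).

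Of 28 genes that answer to ATF4 or to lack of amino acids, 19 were higher, 0 lower and 9 without a call, and the median change was 0.51. The median of the list above the vehicle mean was 0.499, 0.617 and 0.455 in 24 h replicates 1 to 3, against -0.0540, 0.0594 and 0.0167 in the vehicle arrays and 0.119, 0.108 and 0.156 in the 6 h arrays. ATF4 read 11.62, 11.89 and 11.73 in vehicle and 12.60, 12.66 and 12.64 at 24 h. The groups were apart with little spread at 24 h, and ATF4 rose 1.84-fold (1.65 to 2.06, adjusted p = 3.28e-05). CTH, which makes cysteine from cystathionine, read 6.04, 6.17 and 6.16 in vehicle, 6.52, 6.35 and 6.56 at 6 h and 8.17, 8.37 and 8.06 at 24 h. Its 24 h arrays lay above all the others, and it rose 4.21-fold (3.70 to 4.81, adjusted p = 2.59e-07). SLC7A11, which brings cystine into the cell, rose 3.52-fold (3.08 to 4.03).

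Members of that list differed in when they rose. INHBE, a hepatocyte-secreted activin subunit, read 7.26, 7.08 and 7.16 in vehicle, 9.01, 8.94 and 9.12 at 6 h and 9.04, 9.14 and 8.94 at 24 h. The 6 h and 24 h groups overlapped, and the difference between them was 0.01 ± 0.07 log2 units (adjusted p = 0.934). TRIB3, a pseudokinase that restrains insulin signalling and ATF4, also stood at its 24 h level by 6 h, with changes against vehicle of 0.67 at 6 h and 0.74 ± 0.05 at 24 h (adjusted p for the difference = 0.440). CARS1 (0.16 at 6 h, 1.06 ± 0.06 at 24 h), PCK2 (0.05 and 1.03 ± 0.06), the very low density lipoprotein receptor VLDLR (-0.02 and 1.00 ± 0.09) and the stress protein NUPR1 (0.09 and 0.90 ± 0.08) did not pass at 6 h and were higher at 24 h than at 6 h, with adjusted p of at most 0.000151. The 9 members that did not pass included DDIT3 (-0.11 ± 0.07), the death-linked factor CHOP, and CHAC1 (0.19 ± 0.08), which degrades glutathione. DDIT3 read 8.50, 8.73 and 8.51 in vehicle and 8.41, 8.55 and 8.44 at 24 h, with overlapping arrays.

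Serine synthesis and the folate cycle rose at several steps. PHGDH, which opens the serine pathway, read 9.59, 9.75 and 9.66 in vehicle and 11.11, 11.08 and 11.09 at 24 h, with a 6 h mean that differed from vehicle by -0.09. The 24 h arrays were apart from both other groups, and the 6 h change did not pass. PHGDH rose 2.69-fold (2.46 to 2.95, adjusted p = 2.59e-07). The next enzyme, PSAT1, rose by 0.82 ± 0.06. In mitochondria SHMT2, which splits serine, rose by 0.81 ± 0.06, MTHFD2 by 1.10 ± 0.07 and ALDH1L2, which oxidises formyl-tetrahydrofolate, by 1.82 ± 0.15. Their cytosolic counterparts SHMT1 (0.11) and MTHFD1 (-0.19) did not pass. In the transfer of sulfur to cysteine CBS rose by 0.52 ± 0.06. Of 30 genes on that list 10 rose and 1 fell; the fall, of MAT1A, passed in 1 of the 9 fits with an array left out, the one without 6 h replicate 2.

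Most of the enzymes that charge tRNA for translation in the cytosol were higher. Of 18 cytosolic synthetase genes analysed, 11 rose, 1 fell and 6 did not pass, with a median of 0.40, and of 15 mitochondrial ones 0 passed in limma, with a median of 0.07 and changes between -0.21 and 0.24. Of the mitochondrial ones 1 was higher without vehicle replicate 2 or 24 h replicate 3, and 1 lower without 24 h replicate 2. The median of the cytosolic list was 0.382, 0.430 and 0.393 above vehicle in the 24 h arrays, and that of the mitochondrial list at most 0.0839. GARS1, which charges glycine, read 11.19, 11.26 and 11.30 in vehicle and 12.12, 12.09 and 12.14 at 24 h. The groups were apart by far more than their spread, at 1.82-fold (1.68 to 1.98, adjusted p = 4.07e-06). YARS1 (1.04 ± 0.06), AARS1 (0.72 ± 0.06) and WARS1 (0.59 ± 0.06), for tyrosine, alanine and tryptophan, rose as well. VARS1 (-0.01) and HARS1 (-0.17), for valine and histidine, did not pass. The 1 fall, of FARSB, passed in none of the 9 fits that left out an array. Without probe sets that share probes, YARS1 (0.22) did not pass.

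Among 28 amino acid transporters 8 rose and 3 fell, and 1 fall was left when vehicle replicate 1, 24 h replicate 1 or 24 h replicate 3 was dropped. SLC6A9, which takes up glycine, rose by 0.80 ± 0.14, SLC1A4 and SLC1A5, which exchange neutral amino acids, by 0.60 ± 0.07 and 0.58 ± 0.07, and the cationic carriers SLC7A1 and SLC7A2 by 0.59 ± 0.07 and 0.57 ± 0.08. SLC7A5 (0.12) and SLC38A2 (0.00) did not pass. Another SLC1A4 probe set, the one used when shared-probe sets were left out, gave 0.04. EIF4EBP1, which holds back cap-dependent translation, read 10.10, 10.20 and 10.19 in vehicle and 11.07, 11.29 and 11.05 at 24 h. Its 6 h arrays all read 10.15, within the vehicle range, and it rose 1.96-fold at 24 h (1.76 to 2.18, adjusted p = 1.30e-05).

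The folding stress responses, which can accompany ATF4, were described by their own lists. Of 25 chaperones and helpers of the endoplasmic reticulum 2 rose and 3 fell, with a median of -0.06, beside shares of 5.38% higher and 2.8% lower over all genes. The sensor ERN1 (0.46 ± 0.07) and HERPUD1 (0.27 ± 0.05) were the risers, and neither passed as the mean of its probe sets (0.15 for each), nor HERPUD1 without shared-probe sets (0.02). The falls were 0 without 24 h replicate 1 or 2, 6 without vehicle replicate 2 and 1 without any other array. The main chaperone HSPA5 changed by -0.20 and HSP90B1 by -0.22, and neither passed. Of 19 heat shock genes 0 rose and 3 fell, with a median of -0.09, among them DNAJB1 (-0.33 ± 0.06), and 5 fell without vehicle replicate 2.

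**Figure D3:**
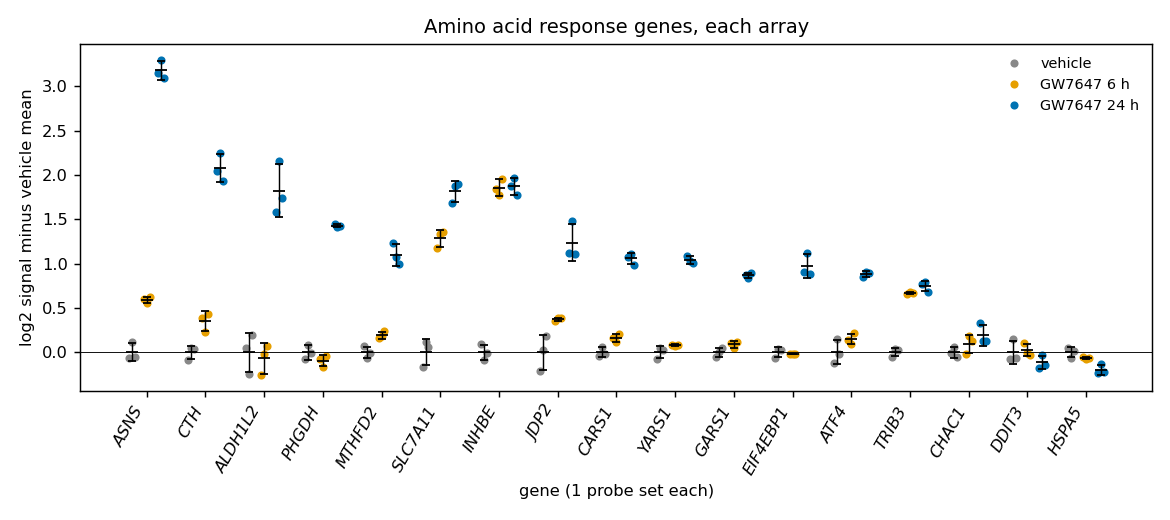
Log2 signal of each array minus the vehicle mean of the gene (vertical axis) for 17 genes of the amino acid response (horizontal axis), with vehicle in grey, 6 h in orange and 24 h in blue, 3 arrays each, and black bars for the mean and SD. ASNS stands 3.18 above vehicle at 24 h, INHBE and TRIB3 are as high at 6 h as at 24 h, and DDIT3 and HSPA5 lie at or below 0.

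The promoters of these genes were read from RefSeq start sites on GRCh38.p14, from 250 bases before to 50 after each start, for 21485 promoters of 15382 of the genes tested. The element to which C/EBP and ATF4 dimers bind was searched as TGATGNAA on both strands. It was present in 2.71% of all promoters, 1.92% of those of genes above the median signal, 3.72% of promoters of genes that rose and 1.43% of those of genes that fell. Among genes that rose over 2-fold the share was 12.2% of 41 promoters, and among the risers of the cytosolic synthetase list 42.9% of 14 promoters, in 6 of 9 genes. For the risers of the ATF4 list it was 15.4% of 26 promoters, in 4 of 16 genes. Among the synthetase matches, that of CARS1 began 2 bases before the start and ran across it. Those of TARS1 and NARS1 began after the start, at positions 2 and 14. A match is a description of letters, not evidence of a bound site. The sequences below run from 5′ to 3′ on the gene's own strand, end before the start, and carry the match in capitals, as TGATGNAA or its reverse complement. They were picked among risers that carry a match, as the largest riser and members of the synthetase, transporter and transcription factor groups. For a gene with several starts, the start with the most matches before it was taken, so the examples do not represent all risers. The windows lie at chr7:97872409-97872658 for ASNS, chr7:30594819-30594877 for GARS1, chr16:70289660-70289719 for AARS1, chr19:46784878-46784937 for SLC1A5 and chr19:33374045-33374104 for CEBPG, a partner of ATF4 that rose by 0.42 ± 0.08 log2 units.
ASNS: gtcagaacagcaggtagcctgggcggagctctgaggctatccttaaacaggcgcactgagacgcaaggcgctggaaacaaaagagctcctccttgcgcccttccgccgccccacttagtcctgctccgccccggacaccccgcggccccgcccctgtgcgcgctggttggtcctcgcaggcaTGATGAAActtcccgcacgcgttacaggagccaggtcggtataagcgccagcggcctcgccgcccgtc
GARS1: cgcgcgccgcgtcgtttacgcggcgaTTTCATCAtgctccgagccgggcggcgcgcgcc
AARS1: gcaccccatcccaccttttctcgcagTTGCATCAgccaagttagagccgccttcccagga
SLC1A5: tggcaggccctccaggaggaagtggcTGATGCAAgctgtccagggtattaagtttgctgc
CEBPG: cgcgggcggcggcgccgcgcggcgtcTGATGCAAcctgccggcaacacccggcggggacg
In the ASNS promoter shown, whose start lies inside the span given for the gene, the match begins 68 bases before that start. The direct repeat of AGGTCA with a single base between its copies, bound by PPAR with RXR and searched on both strands, was found in 5 of the 21485 promoters in 2 of 1263 promoters of genes that rose, in 0 of 630 of genes that fell and in 0 of 33 promoters of PPARα target genes. These windows end 250 bases upstream, and a lack of matches in them says nothing about the receptor.

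Genes of the response to low oxygen formed the other large group that rose. Of 42 analysed, 27 rose, 0 fell and 15 did not pass, with a median change of 0.33, and 16 rose without 24 h replicate 1 or without 24 h replicate 2. The median of the list above the vehicle mean was 0.369, 0.366 and 0.278 in the 24 h arrays, 0.0279, -0.0421 and 0.0303 in the vehicle arrays, and -0.0171, -0.0528 and 0.145 in 6 h replicates 1 to 3. At 6 h, replicate 3 stood above the rest of its group, on the side of the 24 h arrays. LOX, which cross-links collagen, read 8.59, 8.38 and 8.53 in vehicle, 8.41, 8.32 and 8.89 at 6 h and 10.16, 10.36 and 10.27 at 24 h. All 24 h arrays were above all others, and 6 h replicate 3 was the highest of the remaining arrays. LOX rose 3.40-fold (2.80 to 4.13, adjusted p = 1.49e-05), and its 3 probe sets lay between 1.76 and 1.90.

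DDIT4, which restrains mTORC1 and answers to both low oxygen and ATF4, read 10.25, 10.28 and 10.31 in vehicle, 11.44, 11.45 and 11.82 at 6 h and 12.06, 12.01 and 11.96 at 24 h. Its 3 groups did not overlap, and it rose 3.31-fold at 24 h (2.88 to 3.81, adjusted p = 1.78e-06). BNIP3L, a receptor for the removal of mitochondria, read 8.91, 8.50 and 8.88 in vehicle, 8.38, 8.36 and 9.17 at 6 h and 9.76, 9.94 and 9.82 at 24 h. Here too 6 h replicate 3 stood above its group, and the 24 h arrays were apart from all others, at 2.11-fold above vehicle (1.58 to 2.81, adjusted p = 0.00545). VEGFA, which drives vessel growth, rose 1.75-fold (1.45 to 2.11), the glucose transporter SLC2A3 2.04-fold (1.87 to 2.22), the clock repressor BHLHE40 2.06-fold (1.84 to 2.30) and the histone demethylase KDM3A 1.60-fold (1.37 to 1.85). SPAG4, outside the list, also had 6 h replicate 3 above its group and its 24 h arrays above all others, with 7.58, 7.52 and 7.35 in vehicle, 7.28, 6.99 and 8.01 at 6 h and 8.86, 8.87 and 8.94 at 24 h. HIF1A itself (-0.04 ± 0.06) did not pass.

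Glycolysis is a known target of that response. Of 29 genes 8 rose and 1 fell, with a median of 0.15, and the risers were 3 when either of 24 h replicates 1 and 2 was left out and 5 when vehicle replicate 1 was. HK2, the first kinase of the pathway, read 10.27, 10.15 and 10.31 in vehicle and 10.88, 10.77 and 10.80 at 24 h. The groups were apart, and it rose 1.49-fold (1.34 to 1.66, adjusted p = 0.000665). Of later enzymes, ALDOC (0.32 ± 0.08) and ENO2 (0.30 ± 0.06) rose, and PGK1 (0.18) and LDHA (0.09) did not pass. PDK1, which closes the way from glycolysis into mitochondria, rose by 0.70 ± 0.15. The call of ENO2 was lost without 24 h replicate 2, that of ALDOC when any of vehicle replicates 1 and 3 and 24 h replicates 1 and 2 was left out, and that of PDK1 when vehicle replicate 2 or either of 24 h replicates 1 and 2 was. SLC2A2, the main glucose transporter of hepatocytes, fell by 0.70 ± 0.06 log2 units while SLC2A3 rose by 1.03 ± 0.06.

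The letters ACGTG, the core to which HIF binds, stood in 59.6% of 47 promoters of the hypoxia list, against 23.3% of all promoters and 26.1% of those of genes above the median signal. The share was 60% for members that rose and 58.8% for members that did not pass, so it did not separate them. It was 31% for all genes that rose and 23.3% for all that fell. The median content of G and C was 68% in promoters of the hypoxia list, 62.7% in all and 65% in those of genes above the median signal. The shares were not adjusted for that content. CACGTG holds the core on both strands and was counted once per promoter. The windows of 4 risers of this list, picked among those that hold the core, are shown with each core, or its reverse complement CACGT, in capitals. Of 21 risers with a promoter 14 hold the core. For a gene with several starts, the start with the most matches before it was taken. They lie at chr5:122078260-122078509 for LOX, chr10:72273773-72273829 for DDIT4, chr3:4979262-4979318 for BHLHE40 and chr10:110210092-110210148 for MXI1, a MYC antagonist that rose by 0.67 ± 0.07 log2 units.
LOX: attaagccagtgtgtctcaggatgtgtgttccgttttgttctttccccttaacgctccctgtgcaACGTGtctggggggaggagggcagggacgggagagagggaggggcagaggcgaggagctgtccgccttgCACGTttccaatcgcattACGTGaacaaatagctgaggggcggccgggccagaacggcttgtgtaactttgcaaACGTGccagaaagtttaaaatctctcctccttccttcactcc
DDIT4: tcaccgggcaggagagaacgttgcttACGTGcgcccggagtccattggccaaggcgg
BHLHE40: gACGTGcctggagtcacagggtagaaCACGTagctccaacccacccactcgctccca
MXI1: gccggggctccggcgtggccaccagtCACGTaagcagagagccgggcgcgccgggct

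Of 10 analysed metallothioneins, which buffer zinc and copper ions, 8 were higher at 24 h than in vehicle, and 8 were lower at 24 h than at 6 h. MT1X read 10.50, 10.81 and 10.75 in vehicle, 12.97, 12.90 and 12.78 at 6 h and 12.07, 12.06 and 12.04 at 24 h. The 3 groups did not overlap, and MT1X was 2.58-fold above vehicle at 24 h (2.28 to 2.92, adjusted p = 3.32e-06) and lower than at 6 h by 0.83 log2 units (adjusted p = 0.000111). MT2A followed with 2.51-fold (2.21 to 2.83) and a difference between the times of -0.57 ± 0.08 log2 units. Probe sets of this family share probes, so the members cannot be told apart, and a second MT1G probe set gave -0.06. Of 27 metallothionein and zinc transporter genes 11 rose and 2 fell. SLC30A10, which exports manganese, rose by 0.76 ± 0.13, the zinc importer SLC39A10 fell by 0.52 ± 0.08, and the metal-sensing factor MTF1 (-0.08) did not pass. The other fall, of the zinc importer SLC39A4, was lost when any of vehicle replicates 2 and 3 and 24 h replicates 1 and 3 was left out.

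Falls were fewer than rises, and the largest was that of ACTA1, skeletal muscle actin, a target of the serum response factor SRF. ACTA1 read 8.46, 8.58 and 8.55 in vehicle, 8.76, 8.85 and 8.75 at 6 h and 6.96, 6.87 and 6.71 at 24 h. The 24 h arrays were the lowest by a wide margin and the 6 h arrays the highest. ACTA1 fell 3.21-fold (2.88 to 3.57, adjusted p = 2.59e-07) against vehicle. TAGLN, an actin-binding protein of smooth muscle, read 11.01, 11.22 and 11.28 in vehicle and 9.98, 10.10 and 10.04 at 24 h, again with groups apart, and fell 2.19-fold (1.95 to 2.45). Its other probe sets fell by less, down to -0.13 with no shared probes. MYL9, a myosin light chain, fell by 0.51 ± 0.07 and did not pass without shared-probe sets (-0.07). Of 30 contractile and SRF target genes 4 fell, 2 rose and 24 did not pass, and SRF (0.14 ± 0.05), ACTB (-0.05) and VCL (-0.06) were among the last.

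Several plasma proteins that the liver makes were lower. Of 29 acute phase genes 0 rose, 8 fell and 21 did not pass, with a median of -0.09. All 3 fibrinogen chains fell, FGA by 0.54 ± 0.05, FGB by 0.67 ± 0.06 and FGG by 0.44 ± 0.06. FGB read 12.40, 12.52 and 12.34 in vehicle, 12.30, 12.31 and 12.25 at 6 h and 11.74, 11.73 and 11.78 at 24 h. The 24 h arrays were apart from both other groups, at 1.59-fold below vehicle (1.46 to 1.74, adjusted p = 6.87e-05). ITIH3, which binds hyaluronan, read 11.73, 11.90 and 11.74 in vehicle and 11.02, 11.05 and 11.09 at 24 h, which is 1.66-fold lower (1.51 to 1.83, adjusted p = 5.87e-05). The copper carrier CP fell by 0.67 ± 0.08 and transthyretin, TTR, by 0.55 ± 0.07. Albumin (ALB), at 14.87, 14.72 and 14.77 in vehicle and 14.74, 14.80 and 14.70 at 24 h, overlapped between the groups, as its change of -0.04 ± 0.06 shows. SERPINA1 (0.10) and CRP (0.10) did not pass. FGA did not pass without shared-probe sets (-0.11).

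Complement and clotting genes added to the falls. Of 24 complement genes 6 fell and 2 rose, and 1 rose when any of vehicle replicates 1 and 3, 6 h replicate 1 and 24 h replicates 2 and 3 was left out. C5, which starts the membrane attack complex, fell by 0.51 ± 0.06 and C3, the hub of the cascade, by 0.33 ± 0.05, while MASP1, a protease of the lectin pathway, rose by 0.56 ± 0.07 but did not pass as the mean of its probe sets (0.18). Of 33 clotting genes 5 fell and 2 rose, and 3 fell without 24 h replicate 1 or 2. CPB2, which protects clots from lysis, read 10.74, 10.58 and 10.66 in vehicle, 10.38, 10.30 and 10.29 at 6 h and 9.86, 9.89 and 9.71 at 24 h. The 3 groups were in that order with no overlap, and CPB2 fell 1.79-fold at 24 h (1.61 to 1.98, adjusted p = 2.92e-05). F13B, a subunit of the clot-stabilising factor, fell by 0.96 ± 0.15 and F5 by 0.59 ± 0.07. Thrombin, F2 (-0.01), and plasminogen, PLG (-0.16), did not pass.

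**Figure D4:**
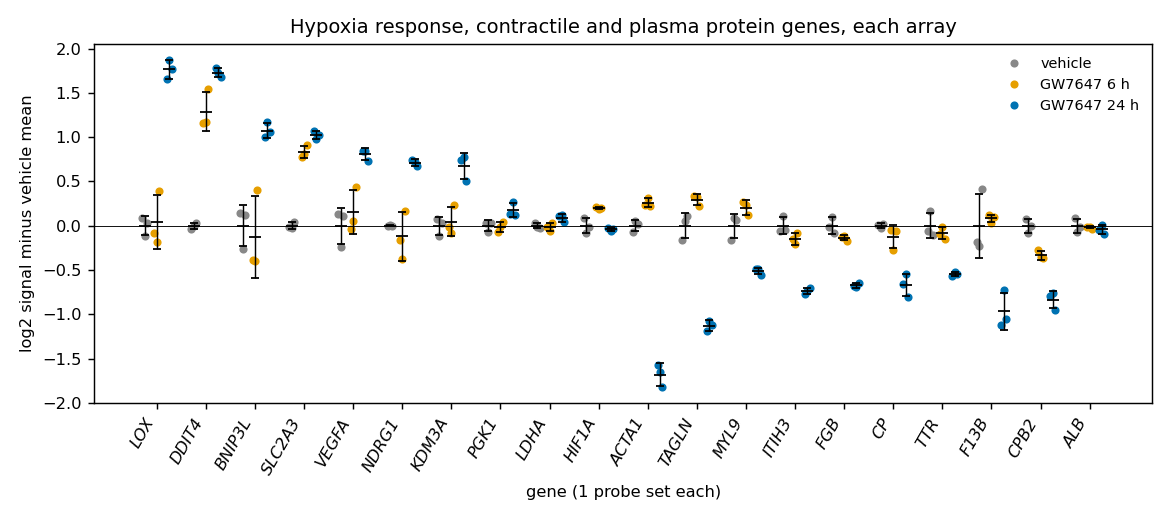
Log2 signal of each array minus the vehicle mean of the gene (vertical axis) for 20 genes of the hypoxia response, the contractile apparatus and plasma proteins (horizontal axis), with vehicle in grey, 6 h in orange and 24 h in blue, 3 arrays each, and black bars for the mean and SD. LOX and DDIT4 stand 1.77 and 1.73 above vehicle at 24 h, ACTA1 at -1.68, ALB near 0, and 6 h replicate 3 lies above its group for LOX and BNIP3L.

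Of 30 genes of drug handling 6 fell and 1 rose. The conjugating enzyme UGT2B28 fell by 0.88 ± 0.07, on a probe set that shares probes with relatives, and the efflux pumps ABCB1 and ABCC2 fell by 0.59 ± 0.05 and 0.52 ± 0.06. CYP1A1, a target of the aryl hydrocarbon receptor, read 7.51, 7.53 and 7.43 in vehicle, 9.79, 9.95 and 9.67 at 6 h and 7.12, 6.98 and 6.97 at 24 h. Its 6 h arrays were far above vehicle and its 24 h arrays below it, and the fall at 24 h was 1.38-fold (1.23 to 1.55, adjusted p = 0.00393). Of 33 inflammatory genes 0 rose, or 1 without 24 h replicate 2, and 4 fell, and IL17B, a cytokine, fell 2.21-fold (1.97 to 2.47), while CXCL8 (-0.25) did not pass.

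Some cell cycle genes fell, several of them needed for DNA replication. Of 41 analysed 7 fell, among them the kinase CDK1 (-0.41 ± 0.06) and the replication factors CDC6 (-0.36 ± 0.06) and CDC45 (-0.35 ± 0.06), and 3 rose, among them the mitotic cyclin CCNB2 (0.45 ± 0.06). Over all genes 5.38% rose and 2.8% fell. Leaving out 24 h replicate 1 or 2 left 1 rise, and leaving out vehicle replicate 2 gave 5. The falls numbered 5 to 8 over the 9 fits with an array left out, and those of MCM3 and RRM1 each passed in 1 of these fits. MKI67 (-0.10) and TOP2A (-0.17) did not pass. CDC6 (-0.24) did not pass without shared-probe sets, nor CCNB2 (0.15) as the mean of its probe sets. The inhibitor CDKN1A fell by 0.40 ± 0.07 and the death receptor FAS by 0.43 ± 0.07, the latter not without shared-probe sets (-0.27). Of 36 immediate early genes 7 rose, among them the matrix protein CCN2 (0.83 ± 0.06) and the survival factor IER3 (0.84 ± 0.07), and 1 fell, ID3 (-0.24 ± 0.06), a fall that passed in 1 of the 9 fits with an array left out, the one without vehicle replicate 1, while FOS (0.05), JUN (0.02) and EGR1 (0.19) did not pass.

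**Figure D5:**
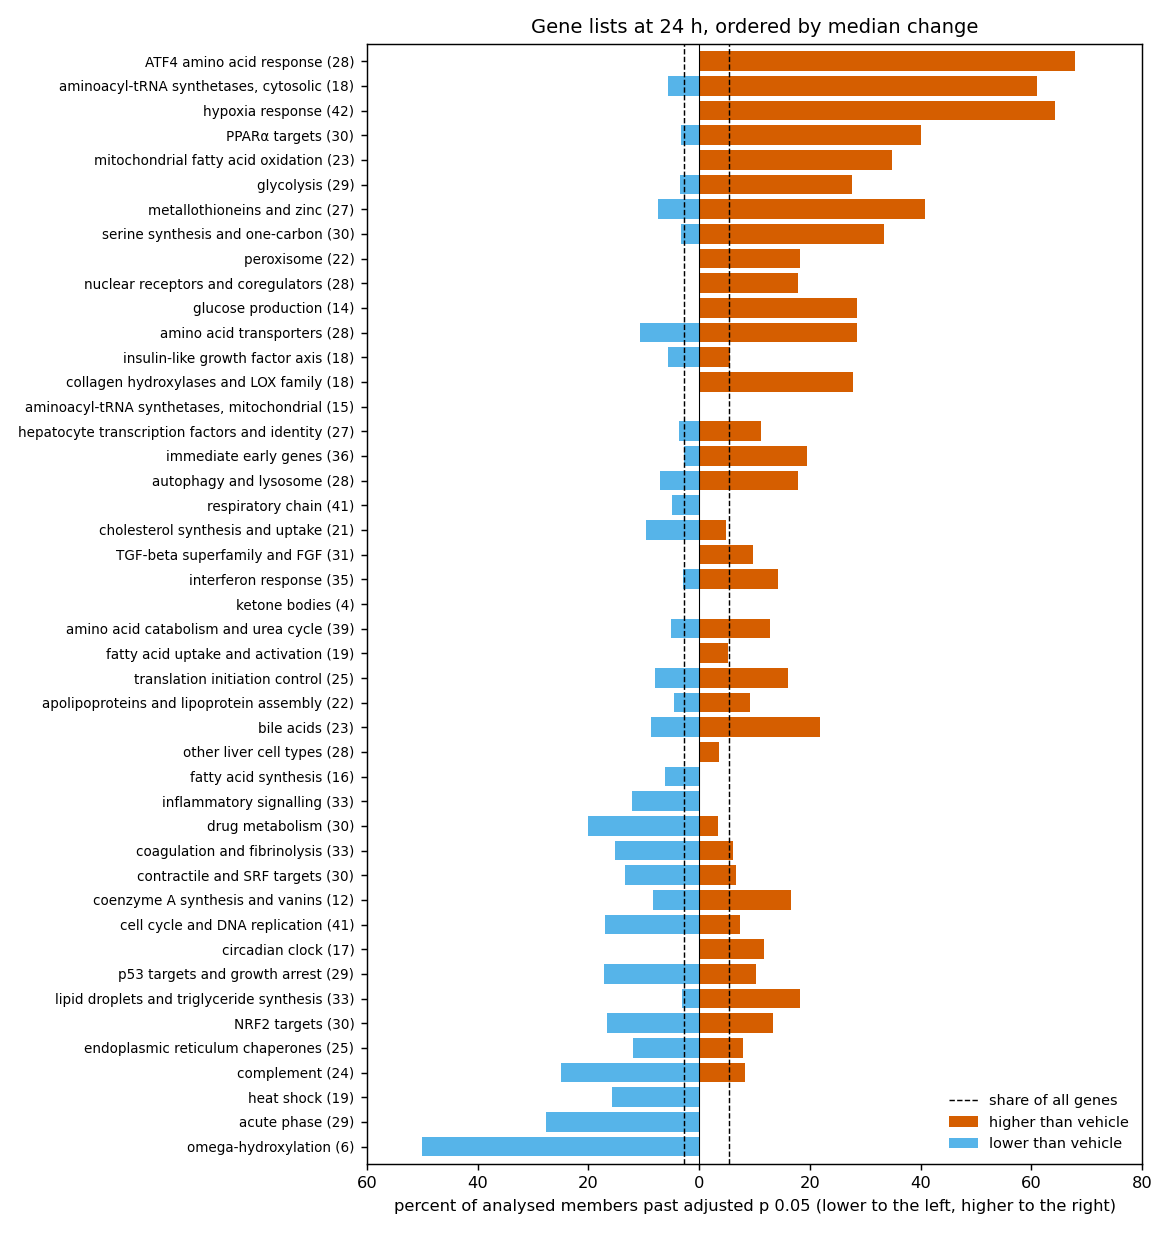
Share of analysed members higher (orange, to the right) and lower (blue, to the left) than vehicle at 24 h at an adjusted p under 0.05, in percent, for 45 gene lists ordered by their median change, with the number of members analysed in brackets. Dashed lines mark the shares over all genes, 5.38% and 2.8%; the ATF4 list has 19 risers of 28 and the acute phase list 8 fallers of 29.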

How the data were processed

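The deposited values are log2 probe set signals of 9 arrays, made by the authors with RMA per the submitters' processing notes (software and version: not given in the sources used here). RMA corrects background, quantile-normalizes and summarises probes, so a global shift between arrays would not show. Probe sets were named through the platform's annotation table; 41091 with 1 symbol were used and no signal filter was set. limma 3.58.1 in R 4.3.3 fitted group means over all 9 arrays with eBayes; the 24 h minus vehicle and 24 h minus 6 h contrasts were adjusted by Benjamini-Hochberg and called under 0.05. The median SE of a log2 change was 0.072; the smallest p of an exact permutation test here is 0.10. The array number limits the precision. The script was tested on simulated data. Fold changes carry 95% confidence intervals. The genes described and the 45 gene lists, with 1156 of 1293 members analysed, were chosen with earlier results of these data known; lists overlap and got no set test. Named were the 25 largest rises and 15 largest falls with arrays apart, the up to 4 largest changes that passed in each list, up to 8 members within a list's description, and 23 fixed genes; SPAG4 is among the 25. Motifs were searched in RefSeq promoters, and a further planned motif was left out because its letters were miswritten. Alternatives were another fit, scaling, probe set rule or threshold, a replicate block, and each array left out in turn.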

Additional observations from a re-analysis of the deposited data

Results flagged for a closer look

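For 14 genes of the lists or the ranking the change against vehicle passed in limma in opposite directions at 6 h and at 24 h, and the difference between the times passed as well. Both changes use the same vehicle arrays. Such opposite changes were not counted over all genes tested, so no share over all genes stands beside the 14. Higher at 6 h and lower at 24 h were CYP1A1 (24 h minus 6 h, -2.78 log2 units), VNN1 (-1.11), IDI1 (-0.70), an enzyme of sterol synthesis, STARD4 (-0.63), a sterol carrier, ID3 (-0.60), TNFAIP3 (-0.59), a brake on NF-κB, and CCNE1 (-0.52), a cyclin of the start of replication. Lower at 6 h and higher at 24 h were PPARGC1A (1.19), the cationic carrier SLC7A2 (0.96), the autophagy receptor NBR1 (0.89), the histone demethylase KDM4B (0.80), CBS (0.80), the liver factor FOXA2 (0.59) and HERPUD1 (0.51).

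The rise or fall at 24 h of FOXA2, ID3, IDI1, KDM4B and TNFAIP3 was lost in at least 1 fit that left out an array. Among them KDM4B lost it without 24 h replicate 2. FOXA2 lost it without 24 h replicate 1 or 2 or any vehicle replicate, and TNFAIP3 when any of vehicle replicates 1 and 3 and 24 h replicates 2 and 3 was left out. Without shared-probe sets the 24 h change was 0.01 for NBR1 and 0.02 for HERPUD1, and as the mean of its probe sets -0.11 for CCNE1, none of which passed. IDI1 kept the call only without 24 h replicate 3, and ID3 only without vehicle replicate 1.

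Outside the gene test, 364 of 13522 probe sets with several gene symbols or none passed at 24 h against vehicle in a fit of all 54613 probe sets, 206 of them higher and 158 lower, with log2 changes from -1.20 to 1.46.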

How the results depend on the processing

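Against 1063 genes higher and 553 lower, a fit of the compared groups alone called 628 and 293. Leaving out shared-probe sets gave 680 and 414. An adjusted p under 0.01 gave 480 and 215, and a change of at least 1.5-fold 136 and 37. Among the 9887 genes above the median signal 1485 were higher and 858 lower. A fit of every probe set on its own counted probe sets and not genes, 1383 higher and 944 lower of 41091. With each array left out in turn, over all 19775 genes, the counts ran from 612 to 1071 higher and from 312 to 593 lower. With a replicate block they were 816 and 400. Deviations from the group means correlated at 0.0864, -0.201 and -0.0201 between 24 h and vehicle arrays of equal number. No values for unequal numbers were set beside these, so they cannot decide whether equal numbers were paired. Of 155 called genes among the largest changes, the first 4 of each list and the fixed genes, 123 kept their call in all 9 fits with an array left out, and 102 under every alternative other than these and the stricter thresholds. An alternative that did not test a gene was not counted against it. Of all 1616 genes called, 1361 were tested without shared-probe sets and 1414 in the fit of genes above the median signal. Signs turned for CEBPD (-0.0664), EIF5 (0.0269), F7 (-0.0439), HOXD1 (-0.0523), IDI1 (0.32) and MT1G (-0.0603) without shared-probe sets, and for IDI1 (0.0614) with the mean of all probe sets. A constant added before the logarithm did not apply to log2 values. The share of genes called was lower at low signal, and the cause was not tested.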
